A study of Mus musculus with 31 samples.

Results

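The measurements describe 8 genes whose transcript level stood apart from wild type in natural killer (NK) cells lacking CIS at every time sampled: Acpp, Rpl29, Mapkapk3, Gpd1l, Btbd11, Stk10, Rasgrp2 and Adgre5. They were chosen by these same data, on the CIS KO against WT difference in unstimulated cells, at 4 h and at 24 h, from 27179 genes in the count table, of which 10275 had enough counts to be tested. That difference is therefore given as a description, with no test. RNA was sequenced from sorted mouse NK cells in 31 libraries. CIS KO cells (knockout of CIS, gene Cish) and TGFBRII KO cells (gene Tgfbr2, the TGF-β type II receptor, knocked out) were set against WT cells, each genotype unstimulated, after 4 h with the cytokine TGFB1 and after 24 h with TGFB1. CIS KO had 4 libraries at each time and TGFBRII KO had 3, whereas WT had 4 unstimulated, 2 at 4 h and 4 at 24 h. Of the 2 WT libraries at 4 h, replicate 1 was the shallowest of all 31, with 297561 counts, and replicate 4 held 806473. Every comparison with WT at 4 h rests on this pair. The labels give neither strain, age nor organ, nor how each knockout was made or any promoter or Cre behind it. The labels call the libraries biological replicates without naming animals, so p-values measure the spread between these libraries only.

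NK cells are innate lymphocytes whose survival and growth depend on interleukin 15. CIS is a suppressor of cytokine signalling that is induced by STAT5 downstream of interleukin 15 and limits that signal, and TGFB1 restrains NK cells through a receptor pair that signals by SMAD proteins. The 8 genes have unlike products: an acid phosphatase, a ribosomal protein, a glycerol-3-phosphate dehydrogenase, protein kinases of the p38 pathway and of the cell cortex, an activator of the small GTPase RAP1, an adhesion receptor and a BTB-domain protein. Of these, 4 lie on chromosome 9, which also holds Cish and Tgfbr2.

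The targeted gene was checked first. Cish was at 18.0 to 56.1 CPM (counts scaled to a common library size by edgeR) in CIS KO libraries and 124 to 173 CPM in TGFBRII KO libraries, against 130 to 289 CPM in WT libraries. Tgfbr2 averaged 230 CPM in unstimulated TGFBRII KO cells, 237 CPM at 4 h and 234 CPM at 24 h. In WT it averaged 213, 340 and 286 CPM at the same times, so it was not lower in unstimulated TGFBRII KO cells. Whole-gene Tgfbr2 counts cannot check the TGFBRII KO label, since they do not show which exons were present. Libraries held 392266 to 1403005 counts in CIS KO, 701095 to 862331 in TGFBRII KO and 297561 to 1135104 in WT. Among unstimulated cells, every CIS KO library (392266 to 711659 counts) was shallower than every WT library (712432 to 1135104 counts). Depth and genotype therefore cannot be told apart in that comparison. Summed markers of NK cells were at 2003 to 4806 CPM in CIS KO, 2986 to 3427 CPM in TGFBRII KO and 2427 to 4927 CPM in WT. Markers of T cells summed to 345 to 488 CPM in CIS KO, 446 to 615 CPM in TGFBRII KO and 400 to 535 CPM in WT. Over all 31 libraries their reads were mostly of Cd3g (3284), Trbc1 (2854), Bcl11b (2071) and Cd3d (1919). Trac had 666 reads, Cd3e 186, Cd4 15, Cd8a 12, Cd8b1 9 and Cd5 3. Markers of myeloid cells, of which 1 of 9 was at 0 throughout, summed to 84.9 to 164 CPM in CIS KO, 112 to 218 CPM in TGFBRII KO and 124 to 209 CPM in WT. Over all libraries most of these reads were of Itgam (2742), with 436 of Cd14, 311 of Cst3 and at most 13 of any other. Markers of B cells (2 of 6 at 0 throughout) reached at most 4.99 CPM in any library and erythroid and platelet markers (4 of 7 at 0 throughout) at most 8.63 CPM. The part of other cells in the differences below was not tested. Xist, made from an inactive X chromosome, was at 0 to 5.22 CPM in CIS KO, 12.6 to 131 CPM in TGFBRII KO and 91.1 to 222 CPM in WT, and Ddx3y, Eif2s3y, Uty and Kdm5d of the Y chromosome summed to 391.7 to 558 CPM in CIS KO, 187 to 451 CPM in TGFBRII KO and 1.38 to 124 CPM in WT. Genotype and the make-up of these libraries by sex chromosome thus cannot be told apart, and all 8 genes are autosomal. In 9 of 40 pairs of replicates of the same group the counts differed by no more than sampling noise (chi-square per degree of freedom under 1). Because the labels call them separate biological replicates, they were kept apart here, and the counts of calls with 5 such pairs summed are given where they differ. All pairs of TGFBRII KO at 24 h (0.999, 0.795 and 0.772) were among the 9, and none of these was summed.

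Acpp and Gpd1l were the genes at a higher level in CIS KO. Acpp (Entrez 56318, also named Acp3; GRCm38/mm10 chromosome 9, 104288240 to 104337722, minus strand) encodes prostatic acid phosphatase, whose membrane form removes phosphate from extracellular AMP to give adenosine in mouse sensory neurons. Unstimulated CIS KO cells had 110.5, 124, 136 and 172 CPM of Acpp, against 86.4, 67.4, 83.8 and 53.9 CPM in WT. At 4 h of TGFB1 the values were 349, 383, 395 and 398 CPM in CIS KO, against 94.0 and 90.2 CPM in WT, and at 24 h they were 207, 296, 223 and 242 CPM in CIS KO, against 89.97, 93.9, 74.5 and 41.5 CPM in WT. Every CIS KO library lay above every WT library of any time, since the lowest CIS KO value was 110.5 CPM and the highest WT value 94.0 CPM. The log2 difference was 0.91 ± 0.18 (SE) in unstimulated cells, 2.05 ± 0.22 at 4 h and 1.69 ± 0.16 at 24 h. In bulk RNA, more cells that carry a transcript and more transcript per cell cannot be told apart, here and for the genes below. TGFBRII KO cells had 46.9, 33.8 and 48.6 CPM unstimulated, 28.9, 54.7 and 43.4 CPM at 4 h and 33.2, 45.2 and 53.6 CPM at 24 h, all below the lowest CIS KO library. Against the WT libraries that also served for CIS KO, the TGFBRII KO difference in Acpp was -0.78 ± 0.23, -1.12 ± 0.29 and -0.79 ± 0.23 on the log2 scale, so the estimates of the 2 knockouts lay on opposite sides of WT. At 24 h the TGFBRII KO libraries nonetheless overlapped those of WT.

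Gpd1l (Entrez 333433; chromosome 9, 114899339 to 114933987, minus strand) encodes a cytosolic relative of glycerol-3-phosphate dehydrogenase, an enzyme that links glycolysis to lipid synthesis and to the NAD balance. It had 82.8, 81.6, 80.5 and 90.2 CPM in unstimulated CIS KO cells, against 58.5, 54.9, 52.0 and 62.2 CPM in WT. At 4 h it was at 84.0, 68.9, 80.3 and 59.3 CPM in CIS KO, against 22.6 and 43.8 CPM in WT, and at 24 h at 86.3, 68.8, 87.3 and 76.6 CPM in CIS KO, against 41.6, 43.2, 37.3 and 37.1 CPM in WT. Libraries of the same time did not overlap, but over all times the lowest CIS KO library (59.3 CPM) was below the highest WT library (62.2 CPM). The log2 difference was 0.58 ± 0.14 unstimulated, 0.98 ± 0.21 at 4 h and 0.97 ± 0.14 at 24 h, and the level in CIS KO moved little with time while that in WT was highest before TGFB1. The 4 h difference was 1.72 without WT replicate 4, when the WT group is a single library of 6 Gpd1l reads. In TGFBRII KO the gene was at 55.7, 50.6 and 71.7 CPM unstimulated, 55.4, 47.5 and 45.7 CPM at 4 h and 54.6, 47.7 and 50.01 CPM at 24 h. Only the highest of these, in an unstimulated library, reached the range of CIS KO over all times.

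**Figure D1:**
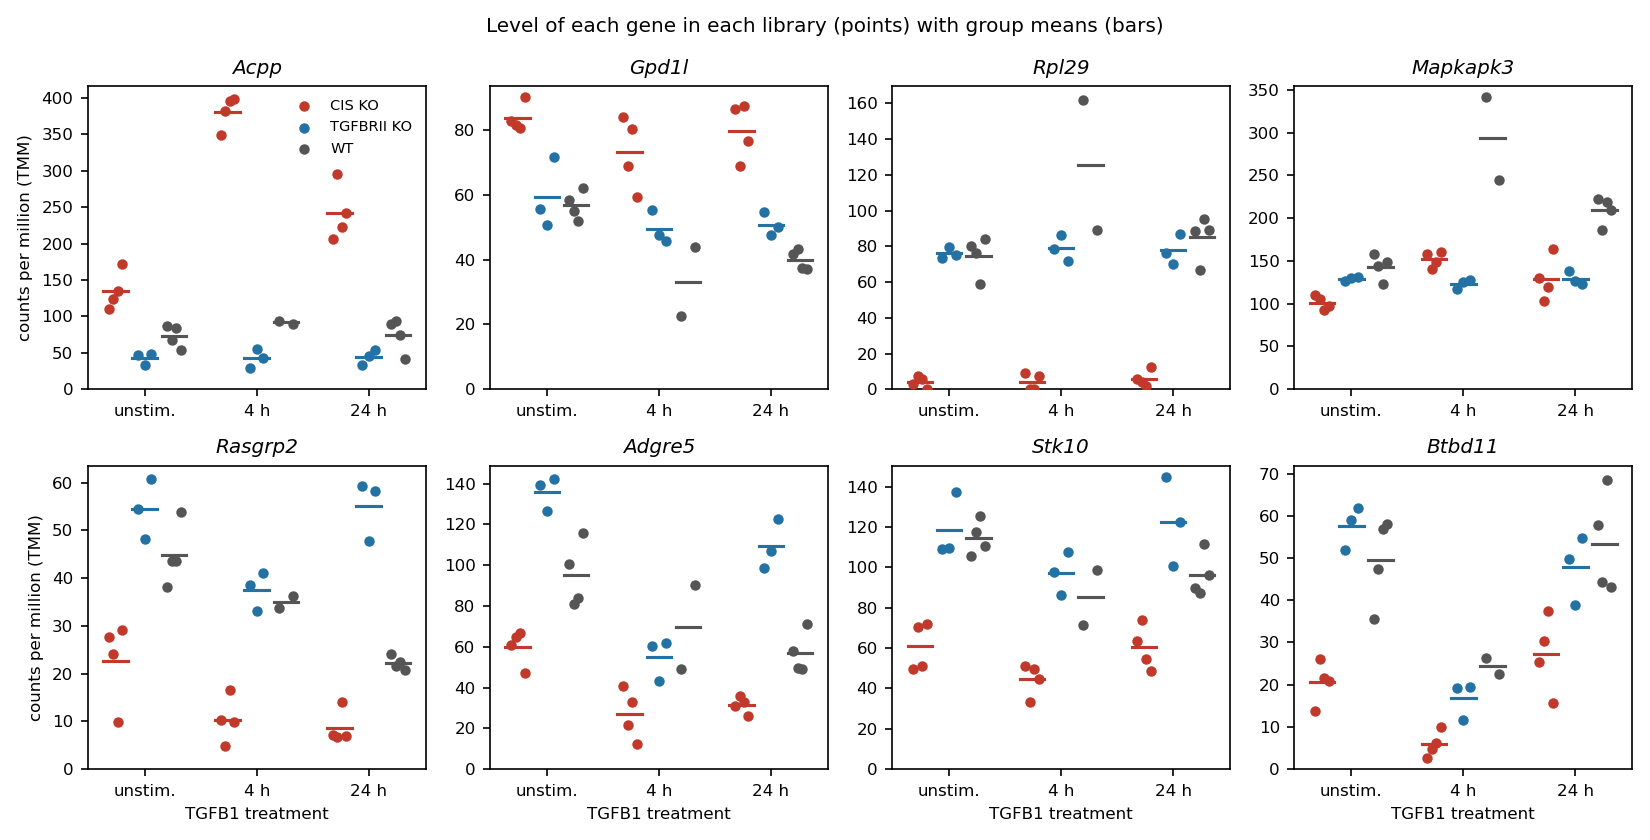
Level of each of the 8 genes in every library, in CPM on a linear axis from 0, by time with TGFB1; points are libraries and bars group means, with CIS KO, TGFBRII KO and WT from left to right within each time. CIS KO libraries stand above WT for Acpp and Gpd1l and below WT for the other 6 genes at each time, and Rpl29 is near 0 in CIS KO alone.

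Rpl29 showed the widest gap of the 8. It encodes a protein of the large ribosomal subunit (Entrez 19944; chromosome 9, 106428889 to 106431568, plus strand). The 12 CIS KO libraries held 0 to 7 Rpl29 reads each, 36 in all, with 3 libraries at 0. Each of the 9 TGFBRII KO libraries held 56 to 73 (567 in all) and each of the 10 WT libraries 43 to 71 (621 in all). Pooled over libraries by their totals, without edgeR's scaling, this was 4.65 CPM in CIS KO (exact Poisson 95% interval 3.26 to 6.44), 78.2 CPM in TGFBRII KO (71.9 to 84.9) and 82.7 CPM in WT (76.3 to 89.4). These intervals cover counting error only. In CPM, unstimulated cells had 2.76, 7.42, 5.89 and 0 in CIS KO, against 80.1, 76.2, 58.7 and 84.2 in WT. The values were 8.91, 0, 0 and 7.41 CPM in CIS KO at 4 h, against 162 and 88.9 in WT, and 5.66, 4.05, 1.56 and 12.2 CPM in CIS KO at 24 h, against 88.6, 66.9, 95.4 and 89.0 in WT. No CIS KO library of any time reached the lowest WT or TGFBRII KO library, and the log2 difference from WT was -4.23 ± 0.41, -4.52 ± 0.43 and -3.94 ± 0.33 at the successive times. Without CIS KO replicate 1, the 4 h difference was -5.51.

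Ribosomal protein genes have many processed copies in the genome, and the reads of Rpl29 can be shared with them. A search of GENCODE M21 transcripts found 69 with at least 90% identity to Rpl29 over 150 bases or more, of which 8 were in the count table, and none for any of the other 7 genes. The pseudogene Gm8210 on chromosome 1 is shown here because, of the 8, it had the most CIS KO reads. Gm8580 also had more reads in CIS KO (53 reads, 6.85 CPM) than in TGFBRII KO (15 reads, 2.07 CPM) and WT (30 reads, 3.99 CPM), as did Gm4945 with at most 3 reads a library. The remaining copies were not all higher in CIS KO. In CIS KO, TGFBRII KO and WT, 4931440P22Rik was at 6.07, 4.14 and 10.1 CPM and Gm13213 at 0.517, 2.07 and 1.20 CPM. In the same order, Gm10548 was at 4.65, 3.59 and 4.26 CPM. Gm12508 was at 1.29, 1.38 and 1.20 CPM and Gm10913 at 0.517, 0.690 and 0.399 CPM. The 3 differences of Gm8210 over the 480 bases of the Rpl29 coding part are C72A, C300T and T423C, with the Rpl29 base first and positions counted from 1 at the start of the coding part. The stretches around them, from the GENCODE M21 transcripts (GRCm38), are printed below 5′ to 3′ with the differing base in capitals.
Rpl29 bases 52 to 92: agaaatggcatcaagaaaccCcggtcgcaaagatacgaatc
Gm8210 bases 52 to 92: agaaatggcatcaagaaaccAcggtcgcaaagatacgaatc
Rpl29 bases 280 to 320: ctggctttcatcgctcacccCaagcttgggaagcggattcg
Gm8210 bases 280 to 320: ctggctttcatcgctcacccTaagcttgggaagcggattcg
Rpl29 bases 403 to 443: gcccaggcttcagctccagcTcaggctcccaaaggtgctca
Gm8210 bases 403 to 443: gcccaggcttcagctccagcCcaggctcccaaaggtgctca

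Gm8210 held 2 to 14 reads in each CIS KO library (65 in all), 0 to 3 in each TGFBRII KO library (10 in all) and 0 to 3 in each WT library (10 in all). The CIS KO libraries thus had more Gm8210 than Rpl29 reads in sum, whereas TGFBRII KO and WT libraries had nearly all in Rpl29. With the copies in the table added, Rpl29 was at 34.0 CPM in CIS KO, 94.0 in TGFBRII KO and 105 in WT. On that sum the log2 difference of CIS KO from WT was -1.92 unstimulated, -1.85 at 4 h and -1.48 at 24 h. The labels do not say how reads that fit several copies were counted, and which gene the CIS KO reads came from was not tested.

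**Figure D2:**
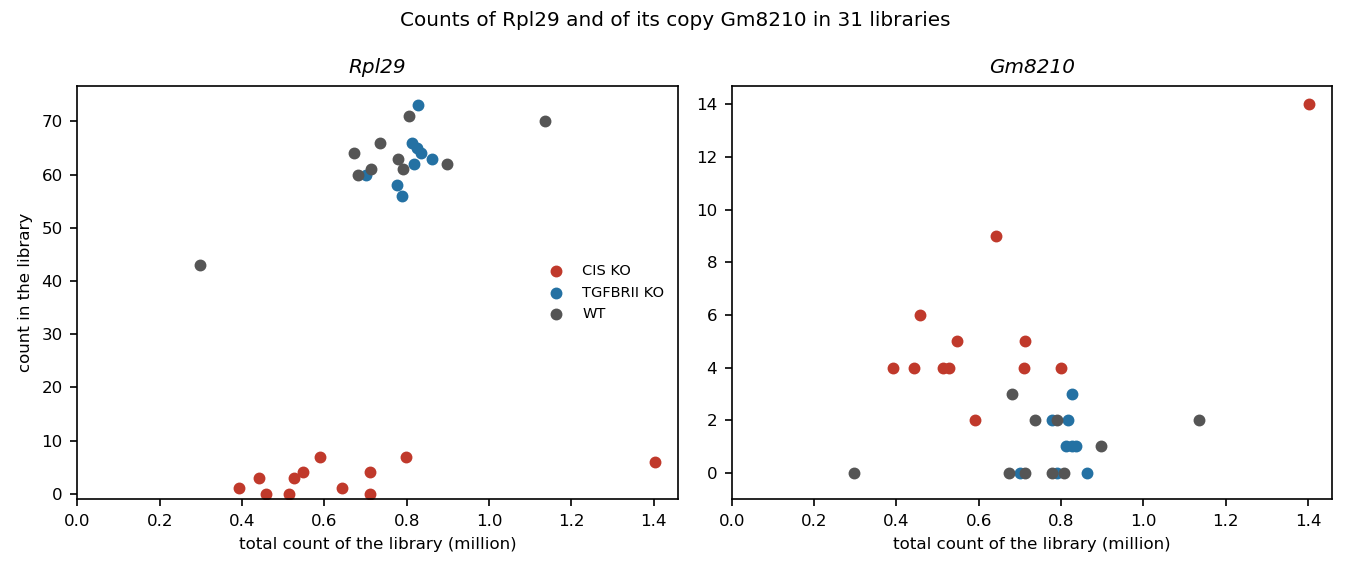
Reads assigned to Rpl29 and to the near-identical pseudogene Gm8210 (y axes, counts) against the total count of the library; each point is 1 of the 31 libraries, coloured by genotype (CIS KO, TGFBRII KO, WT). CIS KO libraries hold 0 to 7 Rpl29 and 2 to 14 Gm8210 reads; all other libraries hold at least 43 Rpl29 and at most 3 Gm8210 reads.

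Mapkapk3 (Entrez 102626; chromosome 9, 107254927 to 107289877, minus strand) encodes a kinase that p38 MAP kinases activate and that acts on RNA-binding and heat-shock proteins. It starts 6.78 kb from Cish, nearer than any other named gene that was tested. Unstimulated cells had 110.5, 106, 92.3 and 97.1 CPM in CIS KO, against 158, 144, 123 and 149 CPM in WT. At 4 h the values were 158, 140.3, 148 and 161 CPM in CIS KO, against 342 and 244 CPM in WT, and at 24 h 130.2, 103, 120.1 and 164 CPM in CIS KO, against 223, 187, 219 and 209 CPM in WT. CIS KO was below WT at each time with no overlap, by -0.50 ± 0.13, -0.88 ± 0.14 and -0.73 ± 0.11 on the log2 scale, the smallest of the 8 differences in unstimulated cells. Without WT replicate 4 the 4 h difference was -1.16. TGFBRII KO cells had 127, 130.2 and 131 CPM unstimulated, 117, 125 and 128 CPM at 4 h and 138, 127 and 123 CPM at 24 h, a nearly flat course. Against the same WT libraries the TGFBRII KO difference was -0.14 ± 0.12, -1.18 ± 0.14 and -0.69 ± 0.12 on the log2 scale. The estimates of both knockouts thus lay below WT at 4 h and at 24 h. CIS KO was below TGFBRII KO before TGFB1, above it at 4 h and overlapping it at 24 h.

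The promoters of Mapkapk3 and Cish are shown because the 2 genes are neighbours that were both lower in CIS KO, and STAT5 is the known inducer of Cish. Promoter sequence was available from RefSeq (GRCm38.p6, 250 bases before to 50 after each start) for 6 of the 8 genes, with 9 promoters between them, leaving Rpl29 and Adgre5. A further Mapkapk3 promoter among the 9 (chr9:107289347-107289646) is not printed. Capitals mark matches to TTCNNNGAA, the motif of STAT factors (GAS), which reads the same on both strands.
Mapkapk3 chr9:107289828-107290127 minus strand: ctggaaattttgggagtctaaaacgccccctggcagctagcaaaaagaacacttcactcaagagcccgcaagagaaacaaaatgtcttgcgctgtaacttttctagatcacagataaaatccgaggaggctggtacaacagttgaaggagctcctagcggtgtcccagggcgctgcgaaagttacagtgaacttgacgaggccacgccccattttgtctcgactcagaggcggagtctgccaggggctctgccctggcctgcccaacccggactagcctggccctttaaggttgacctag
Cish chr9:107296409-107296708 plus strand: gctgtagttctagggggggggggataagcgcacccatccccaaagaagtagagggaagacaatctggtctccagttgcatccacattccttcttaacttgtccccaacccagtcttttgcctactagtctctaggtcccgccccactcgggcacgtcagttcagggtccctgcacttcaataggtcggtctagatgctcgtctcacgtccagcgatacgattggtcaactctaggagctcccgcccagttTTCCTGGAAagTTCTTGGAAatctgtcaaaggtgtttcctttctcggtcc

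The Cish promoter held 2 GAS matches, at bases 251 to 259 and 262 to 270 of the printed stretch, and none of the 9 promoters of the 8 genes held one. Of 32851 RefSeq promoters of the same length, 2726 (8.3%) held at least 1. The SMAD palindrome GTCTAGAC was in 0 of the 9 and in 70 of all promoters (0.213%). These are matches of letters within 300 bases and say nothing of binding. The 9 promoters had a GC content of 52.0% to 80.0% with a median of 58.3%, and the median of all promoters was 52.7%.

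Rasgrp2 and Adgre5, whose products act in adhesion, were both lower in CIS KO. Rasgrp2 (Entrez 19395; chromosome 19, 6398957 to 6415216, plus strand) encodes the calcium-sensing exchange factor CalDAG-GEFI, which switches on RAP1 and through it integrins in platelets and leukocytes. It was at 27.6, 24.1, 9.82 and 29.1 CPM in unstimulated CIS KO cells, against 38.1, 43.7, 43.6 and 53.9 CPM in WT. Under TGFB1 it had 10.2, 4.75, 16.5 and 9.89 CPM in CIS KO at 4 h, against 33.8 and 36.3 CPM in WT, and 7.08, 6.74, 14.0 and 6.96 CPM in CIS KO at 24 h, against 24.2, 21.6, 22.4 and 20.8 CPM in WT. At each time the CIS KO libraries were all below the WT libraries, by -0.96 ± 0.23, -1.75 ± 0.35 and -1.40 ± 0.29 on the log2 scale, from as few as 2 reads a library in CIS KO. TGFBRII KO cells had 54.5, 48.2 and 60.8 CPM unstimulated, 38.5, 33.1 and 41.1 CPM at 4 h and 59.4, 47.7 and 58.3 CPM at 24 h. All 9 of these lay above all 12 CIS KO libraries, and the 24 h libraries also lay above WT, by 1.31 ± 0.22 on the log2 scale.

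Adgre5 (Entrez 26364; chromosome 8, 83723245 to 83741311, minus strand) encodes CD97, an adhesion G protein-coupled receptor of leukocytes that binds CD55. Unstimulated CIS KO cells had 60.8, 64.9, 66.8 and 47.2 CPM, against 100.4, 81.2, 83.8 and 116 CPM in WT. At 4 h the level was 40.8, 21.4, 32.9 and 12.4 CPM in CIS KO, against 48.9 and 90.2 CPM in WT, and at 24 h 31.1, 35.7, 32.7 and 26.1 CPM in CIS KO, against 57.7, 49.6, 49.2 and 71.2 CPM in WT. CIS KO was below WT at each time without overlap, by -0.68 ± 0.18, -1.41 ± 0.27 and -0.80 ± 0.20 on the log2 scale. The 2 WT libraries at 4 h were far apart, and without WT replicate 4 the difference at 4 h was -0.73. In TGFBRII KO the gene had 139, 127 and 142 CPM unstimulated, 60.2, 43.2 and 61.7 CPM at 4 h and 98.5, 107 and 123 CPM at 24 h. These exceeded every WT library of the same time in unstimulated cells and at 24 h, by 0.53 ± 0.15 and 0.95 ± 0.18 on the log2 scale, and overlapped the WT libraries at 4 h, where the difference of -0.48 ± 0.24 turned to 0.19 without WT replicate 4.

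Stk10 and Btbd11 completed the group of genes lower in CIS KO. Stk10 (Entrez 20868; chromosome 11, 32533266 to 32624595, plus strand) encodes LOK, a lymphocyte kinase that phosphorylates the ezrin, radixin and moesin proteins tying membrane to actin. It had 49.7, 70.5, 51.0 and 72.1 CPM in unstimulated CIS KO cells, against 106, 117, 126 and 110.5 CPM in WT. The values at 4 h were 50.9, 33.3, 49.4 and 44.5 CPM in CIS KO, against 71.4 and 99.0 CPM in WT, and those at 24 h were 63.7, 74.2, 54.6 and 48.8 CPM in CIS KO, against 89.97, 87.4, 112 and 96.5 CPM in WT. The log2 difference was -0.88 ± 0.15, -0.99 ± 0.22 and -0.61 ± 0.15, with no overlap at any time, although over all times the highest CIS KO library (74.2 CPM) passed the lowest WT library (71.4 CPM). The 4 h value was -0.64 without WT replicate 4. TGFBRII KO cells had 109, 109.7 and 137 CPM unstimulated, 97.5, 86.4 and 108 CPM at 4 h and 145, 100.5 and 123 CPM at 24 h, all above all CIS KO libraries.

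Btbd11 (Entrez 74007; chromosome 10, 85384971 to 85660292, plus strand) encodes a protein with ankyrin repeats and a BTB domain, described at synapses in mouse neurons. Unstimulated cells had 13.8, 25.97, 21.6 and 20.8 CPM in CIS KO, against 35.6, 47.4, 57.0 and 58.0 CPM in WT. At 4 h it was at 2.55, 4.75, 6.18 and 9.89 CPM in CIS KO, from 2 to 4 reads a library, against 26.3 and 22.6 CPM in WT, and at 24 h at 25.5, 30.3, 37.4 and 15.7 CPM in CIS KO, against 57.7, 44.2, 68.6 and 43.0 CPM in WT. The log2 difference was -1.24 ± 0.25, -2.13 ± 0.48 and -0.92 ± 0.21, and both genotypes were lowest at 4 h. The same dip stood in TGFBRII KO, with 51.9, 59.1 and 62.0 CPM unstimulated, 19.3, 11.5 and 19.4 CPM at 4 h and 49.9, 39.0 and 54.8 CPM at 24 h.

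All 8 genes had CIS KO and WT libraries that did not overlap at each time, which the choice of the genes used; libraries did not overlap for 16.1% of all tested genes in unstimulated cells, 16.2% at 4 h and 6.67% at 24 h. Likewise 8 of 8 passed an adjusted p of 0.05 (edgeR's quasi-likelihood test, Benjamini-Hochberg adjustment over 10275 genes) at each time, where 6.15%, 0.273% and 3.27% of tested genes did, and at all 3 times in the same direction, where 16 genes (0.156%) did. These counts restate the choice, and so do the adjusted p-values and passes of the 8 genes given next, which are no test of them. The other 8 of the 16 were Cish, Xist, Uty, Eif2s3y, Ddx3y, Kdm5d, an unnamed gene model and Acvrl1, a receptor kinase of the TGF-β family that was higher in CIS KO by 1.58, 3.31 and 4.26 on the log2 scale. Of the 16, the genes nearest the threshold were Btbd11 and Acvrl1, whose largest adjusted p over the 3 times was 0.037, and Stk10, with 0.0325. Just beyond it, with the same sign at all times, were Gpx8 (0.42, 1.15 and 0.65 on the log2 scale; largest adjusted p 0.0557), Cdkn1a (0.66, 0.61 and 0.52; 0.0615) and Avil (0.57, 0.67 and 0.38; 0.067). With the 5 replicate pairs within sampling noise summed, 3 of the 8 genes (Acpp, Rpl29 and Gpd1l) and 10 of the 16 passed at all times. With the log of library depth as a covariate, Gpd1l, Rasgrp2 and Adgre5 no longer passed at all times. When the 2 groups compared were fitted alone, Acpp, Rpl29 and Stk10 passed at all times.

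**Figure D3:**
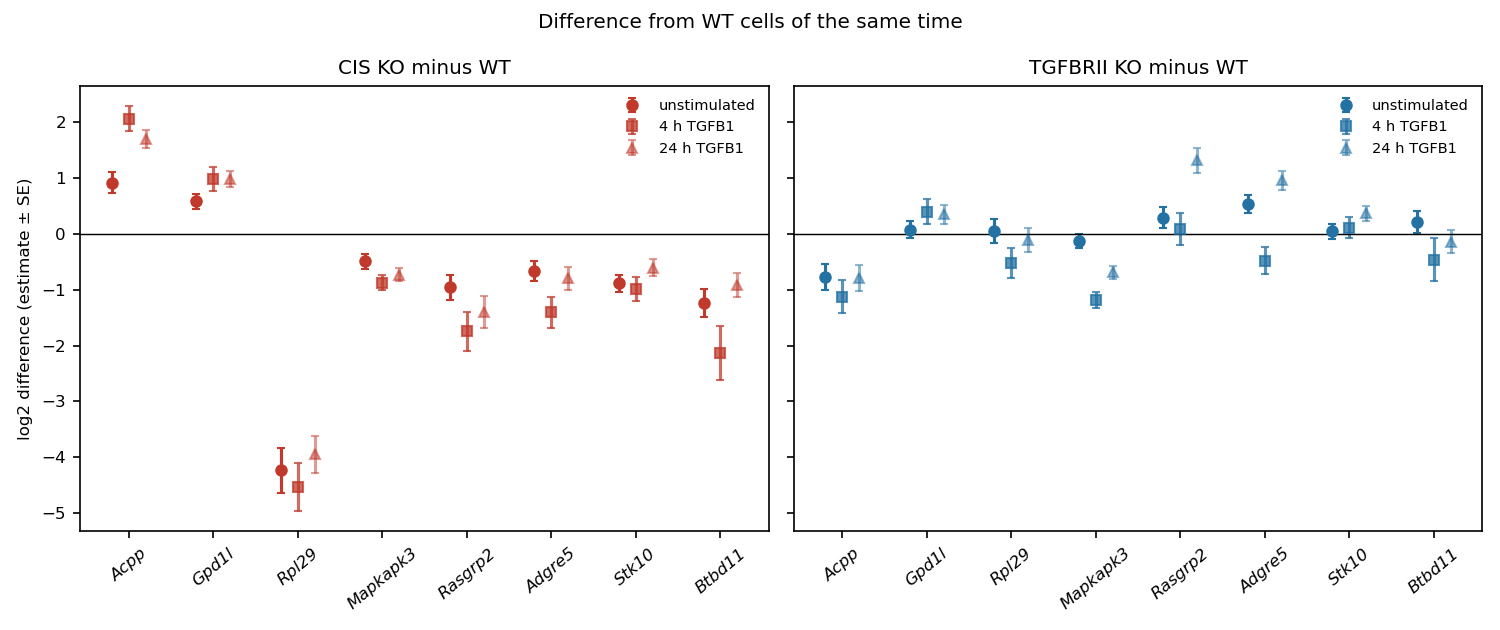
Log2 difference in transcript level, with its standard error, of CIS KO minus WT and of TGFBRII KO minus WT for the 8 genes at the 3 times, in 1 panel a knockout; both differences share the WT libraries. The CIS KO differences keep their sign over time for each gene, as the genes were chosen to do, whereas those of TGFBRII KO differ in sign between times for Rpl29, Btbd11 and Adgre5 (for Adgre5 not without WT replicate 4 of 4 h).

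Against TGFBRII KO, whose libraries took no part in choosing the genes, CIS KO libraries did not overlap for 8 of 8 genes in unstimulated cells (2 higher, 6 lower; 24.6% of tested genes), for 8 of 8 at 4 h (3 higher, 5 lower; 29.8%) and for 7 of 8 at 24 h (2 higher, 5 lower; 24.4%). The CIS KO libraries on one side of these comparisons are the ones used in the choice. The gene that broke the pattern was Mapkapk3, higher in CIS KO than in TGFBRII KO at 4 h. TGFBRII KO and WT libraries did not overlap for 2 of 8 genes in unstimulated cells (Acpp lower, Adgre5 higher; 10.1% of tested genes), for 5 of 8 at 4 h (Acpp, Rpl29, Mapkapk3 and Btbd11 lower, Gpd1l higher; 40.7%) and for 4 of 8 at 24 h (Mapkapk3 lower, Gpd1l, Rasgrp2 and Adgre5 higher; 29.8%). WT had 2 libraries at 4 h, which makes such separation more frequent. The TGFBRII KO difference of Rpl29 from WT at 4 h, -0.52 ± 0.27 on the log2 scale, was -1.04 without WT replicate 4, and that of Stk10, 0.11 ± 0.19, was then 0.45.

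The response to TGFB1 within a genotype was tested, since the genes were chosen on differences between genotypes at a given time; the CIS KO and WT libraries nonetheless served in that choice, and TGFBRII KO libraries did not. The labels name no group held for 4 h or 24 h without TGFB1. An effect of time in culture therefore cannot be told apart from a response. In CIS KO, 5 of 8 genes changed at 4 h, where 14.1% of tested genes did. Acpp rose by 1.45 ± 0.16 on the log2 scale (adjusted p = 1.83e-08) and Mapkapk3 by 0.60 ± 0.13 (adjusted p = 0.00168). Btbd11 fell by 1.96 ± 0.42 (adjusted p = 0.00102), Rasgrp2 fell by 1.11 ± 0.32 (adjusted p = 0.0162) and Adgre5 fell by 1.01 ± 0.24 (adjusted p = 0.00365). The Rasgrp2 call rested on single libraries: its adjusted p was 0.147 without unstimulated replicate 4, and 0.0569 and 0.077 without replicates 1 and 2 of 4 h. At 24 h in CIS KO, 3 of 8 differed from unstimulated cells, where 24% of tested genes did: Acpp was higher by 0.82 ± 0.16 (adjusted p = 0.000215), Rasgrp2 fell by 1.45 ± 0.31 (adjusted p = 0.000634) and Adgre5 fell by 0.86 ± 0.22 (adjusted p = 0.00354). The dip of Btbd11 was over by 24 h, when its difference was 0.40 ± 0.27 (adjusted p = 0.285).

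WT cells gave 2 of 8 calls at 4 h, where 11.9% of tested genes changed, and 4 of 8 at 24 h, where 21.1% did. Mapkapk3 rose by 0.97 ± 0.13 at 4 h (adjusted p = 2.9e-06) and was still higher by 0.55 ± 0.11 at 24 h (adjusted p = 0.000155). Btbd11 fell by 1.07 ± 0.31 at 4 h (adjusted p = 0.0209), a call that was lost (adjusted p = 0.276) without WT replicate 4 of 4 h and without 2 other WT libraries (0.0592 without unstimulated replicate 3, 0.0595 without replicate 1 of 4 h). At 24 h Rasgrp2 fell by 1.00 ± 0.21 (adjusted p = 0.000422), Adgre5 fell by 0.74 ± 0.17 (adjusted p = 0.00112) and Gpd1l fell by 0.49 ± 0.15 (adjusted p = 0.0194). Rasgrp2 and Adgre5 were thus lower at 24 h of TGFB1 in CIS KO and in WT. Acpp in WT differed by 0.30 ± 0.25 at 4 h (adjusted p = 0.474) and 0.05 ± 0.19 at 24 h (adjusted p = 0.905). The Acpp response of CIS KO minus that of WT, described without a test, was 1.14 ± 0.30 at 4 h and 0.78 ± 0.25 at 24 h.

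**Figure D4:**
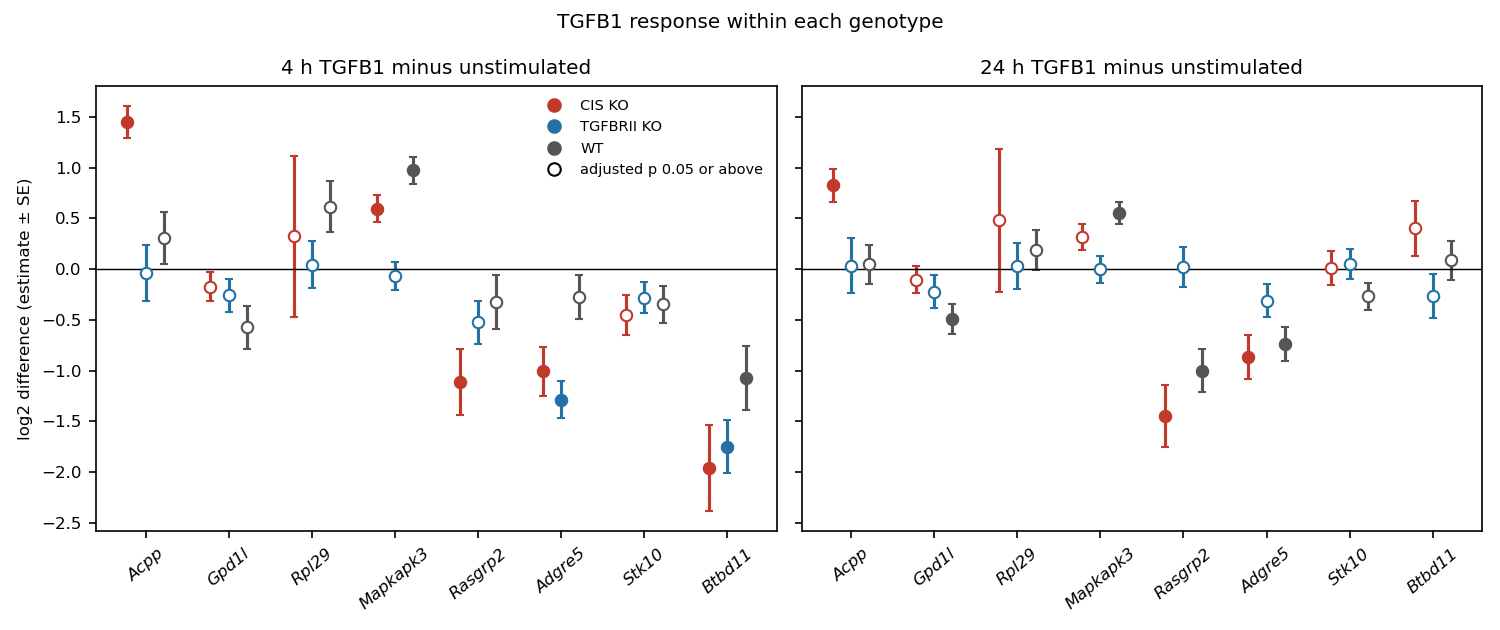
Log2 response to TGFB1 (treated minus unstimulated) with its standard error for the 8 genes in CIS KO, TGFBRII KO and WT at 4 h and 24 h; filled points passed an adjusted p of 0.05. Btbd11 is lower at 4 h in all 3 genotypes, and the CIS KO points of Acpp lie at 1.45 and 0.82.

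In TGFBRII KO, 2 of 8 genes changed at 4 h, where 8.02% of tested genes did. Btbd11 fell by 1.75 ± 0.26 (adjusted p = 4.84e-05) and Adgre5 fell by 1.29 ± 0.18 (adjusted p = 2.38e-05) in cells labelled as lacking the receptor, with all 3 libraries at 4 h below all 3 unstimulated libraries for both genes. At 24 h, 0 of 8 genes passed edgeR's quasi-likelihood test, where 2 genes in all did (0.0195% of tested genes). None of the 8 had an unadjusted p under 0.05 there, and DESeq2 also called 0 of the 8. Adgre5 had the lowest p, with a difference of -0.31 ± 0.16.

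Whether these responses differed from those of WT was tested as an interaction. The WT libraries on one side of it also served in choosing the genes, so its calls are not independent of that choice. At 4 h, 2 of 8 genes differed, where 7.57% of tested genes did. For Mapkapk3 the TGFBRII KO response was lower than the WT response by -1.04 ± 0.19 (adjusted p = 0.000358), with a rise in WT and a difference of -0.07 ± 0.13 in TGFBRII KO. The Adgre5 response was lower by -1.01 ± 0.29 (adjusted p = 0.025), but this was -0.34 with an adjusted p of 0.72 without WT replicate 4 of 4 h. At 24 h, 2 of 8 differed, where 10.8% of tested genes did. Mapkapk3 was again lower in its response, by -0.56 ± 0.17 (adjusted p = 0.0275), and the Rasgrp2 response was higher by 1.02 ± 0.29 (adjusted p = 0.0164), with 0.02 ± 0.20 in TGFBRII KO against the fall in WT. For Btbd11, which fell at 4 h in both, the response difference was -0.68 ± 0.43 (adjusted p = 0.373).

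Of the 8 genes, 4 lay on the chromosome of the targeted gene. From Cish (chromosome 9, 107296659 to 107302784), Mapkapk3 was 6.78 kb away, Rpl29 0.865 Mb, Acpp 2.959 Mb and Gpd1l 7.597 Mb, the last also 1.154 Mb from Tgfbr2. Among tested genes within 10 Mb of Cish, 4 of 131 (3.05%) were called at all times, and these are the 4. Within 1 Mb the count was 2 of 36, from 1 to 5 Mb 1 of 64, from 5 to 10 Mb 1 of 31, from 10 to 20 Mb 0 of 81, on the rest of chromosome 9 0 of 357 and on other chromosomes 10 of 9512 (0.105%), of which 5 are on X or Y. A further 193 tested genes had no chromosome in the annotation, and 1 of them was called. Because the genes were chosen with their place known, these are shares and not a test. The 2 genes within 1 Mb were lower in CIS KO and the 2 farther out were higher. Without CIS KO unstimulated replicate 3, 2 of the 4 remained called at all times.

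**Figure D5:**
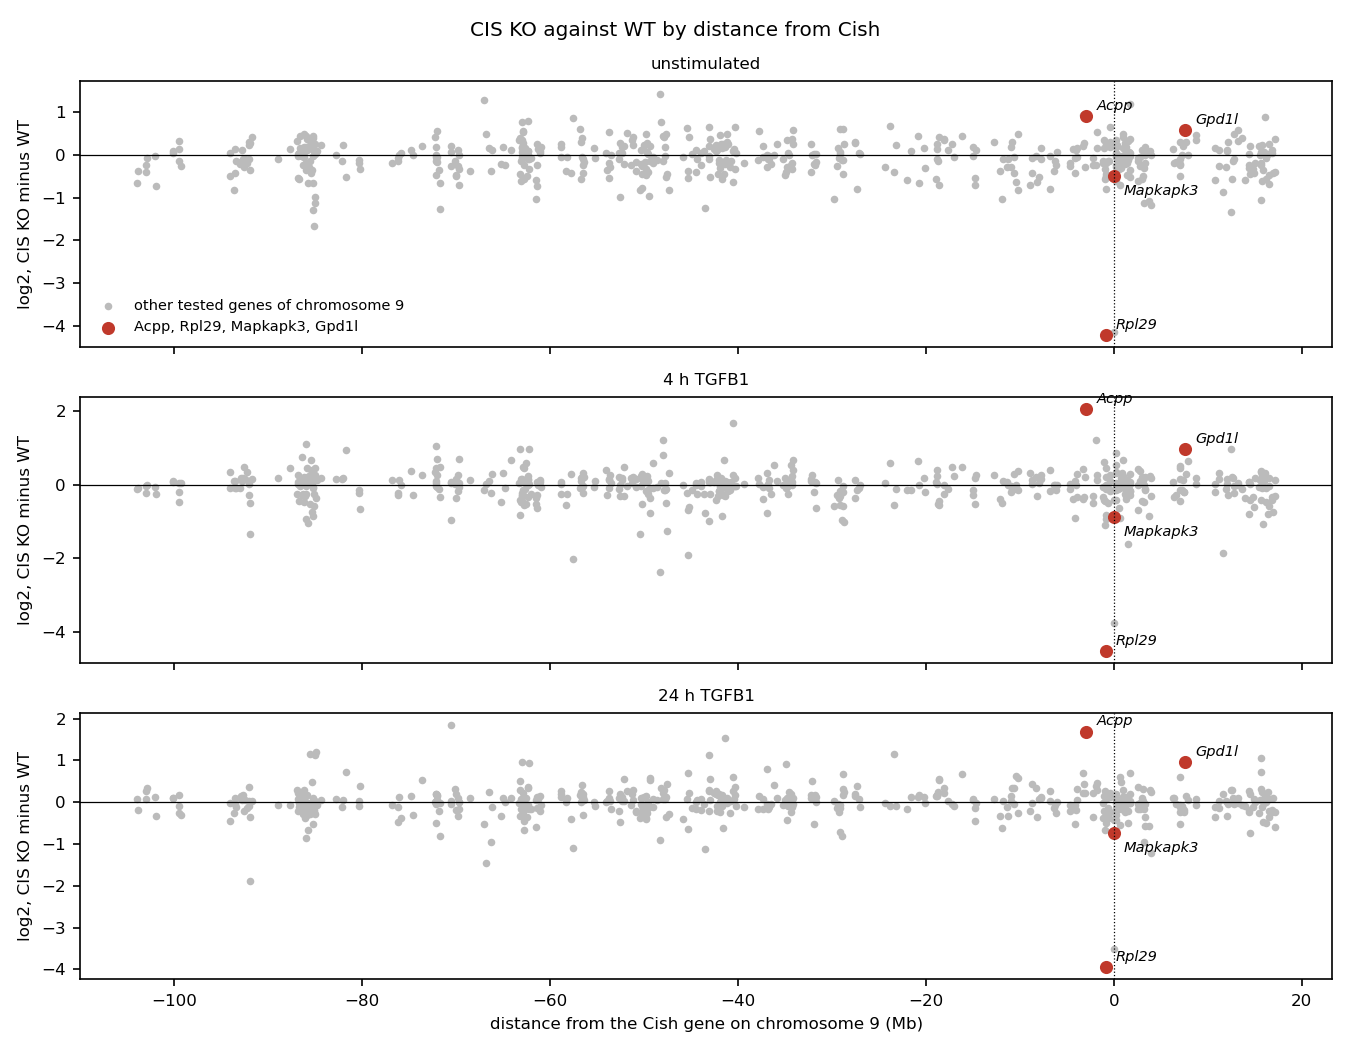
Log2 difference of CIS KO minus WT for the tested genes of chromosome 9, against distance from Cish in Mb, at the 3 times, with Mapkapk3, Rpl29, Acpp and Gpd1l marked. The 4 marked genes lie up to 7.597 Mb from Cish, and most genes between them lie near 0.

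Of the 5 nearest tested genes on each side of Cish, Mapkapk3 alone passed at all times. Hemk1, 24.3 kb away on the other side, differed by -0.57, -0.42 and -0.42 on the log2 scale and passed at no time. Manf, encoding a protein of the endoplasmic reticulum stress response, was higher by 0.66 ± 0.17 and Cyb561d2 lower by -0.61 ± 0.14 in unstimulated CIS KO cells, and Rad54l2 was lower by -0.37 ± 0.10 at 24 h. Each of these 3 passed at that time alone.

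Genes of the same pathways were counted from 8 lists. None had a gene called in CIS KO against WT at all 3 times, but at a share of 0.156% over all tested genes few or none would be called in lists of this size, and the calls at single times below stand beside shares of 6.15% in unstimulated cells, 0.273% at 4 h and 3.27% at 24 h. Of 19 tested genes around RASGRP2, RAP1 and integrins, Rap1a was higher (0.37 ± 0.11) and Rasgrp4 lower (-1.54 ± 0.34) in unstimulated cells, none passed at 4 h and Itgb2 was lower (-0.41 ± 0.11) at 24 h. Its most abundant genes, Itgb1, Tln1 and Apbb1ip, differed by 0.21 ± 0.10, 0.02 ± 0.10 and -0.18 ± 0.09 in unstimulated cells and did not pass. Of 9 genes of the p38 and MAPKAPK pathway, 0 passed at any time, and Mapkapk2, the closest relative of Mapkapk3, differed by 0.32 ± 0.14, -0.06 ± 0.17 and -0.07 ± 0.14 at the successive times. Of 10 genes around STK10 and its ERM substrates, Rhoa was higher (0.42 ± 0.13) in unstimulated cells and Plk1 (0.67 ± 0.14) at 24 h, while Msn, which encodes moesin, differed by 0.21 ± 0.11, 0.05 ± 0.14 and -0.04 ± 0.11 and passed at no time. Among 7 adhesion receptors and ligands of CD97, Cd55, the ligand of the Adgre5 product, was higher in CIS KO by 0.80 ± 0.14 in unstimulated cells and 0.94 ± 0.16 at 24 h, with 0.67 ± 0.21 at 4 h (adjusted p = 0.195), whereas the receptor gene Adgrg5 was lower by -0.83 ± 0.16 in unstimulated cells. Rap1a, Rasgrp4, Itgb2, Rhoa, Plk1 and Adgrg5 were named after their values were seen.

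Of 11 genes of glycerol-3-phosphate and the NAD shuttle, Agpat5 (0.41 ± 0.12) and Ldha (0.64 ± 0.19) were higher in unstimulated CIS KO cells. Of 12 acid phosphatases and genes of extracellular adenosine, Acp5 was lower (-1.66 ± 0.41), and of 11 BTB and ankyrin relatives, Btbd6 was lower (-1.28 ± 0.34), both in unstimulated cells. Of 83 cytosolic ribosomal proteins other than Rpl29, 24 were higher and 0 lower in unstimulated CIS KO cells, with a median log2 difference of 0.55 against -0.04 over all tested genes. None of the 83 passed at 4 h or at 24 h. The count depended on the processing: 58 were higher without a low-count filter and 36 of 60 with a p by DESeq2, whereas with a depth covariate 1 was higher at a median of 0.08, and with replicate pairs summed 0 passed at a median of 0.62. Like Rpl29, these genes may share reads with copies, and in unstimulated cells depth and genotype cannot be told apart.

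By Pearson r over the 31 libraries, among 10070 genes with a mean of at least 5 CPM, Rpl29 was most like Cish (0.93), Xist (0.92) and Stk10 (0.82). Rasgrp2 was most like Sla (0.91), Adgrg5 (0.89) and Smad3 (0.89), and Stk10 was most like Cd200r2 (0.90), Tspyl3 (0.90) and Tox (0.90). Adgre5 was most like Il10rb (0.90), Nod1 (0.88) and Sec22c (0.88), Btbd11 most like Fam189b (0.87), St3gal1 (0.85) and Syne1 (0.84), and Acpp most like Avil (0.87), Crisp1 (0.84) and Ifitm3 (0.84). The values for Mapkapk3 reached 0.81 with Cyth4, 0.80 with Cerk and 0.80 with Gtpbp1, and those for Gpd1l 0.75 with Gmds, 0.73 with Dnajc19-ps and 0.72 with Serf1. The correlations contain the differences between the libraries in genotype, time and depth. Once group means were removed, the 8 genes went together little: the highest r between any pair was 0.56 for Gpd1l and Adgre5 and 0.53 for Rpl29 and Mapkapk3, and Acpp had none above 0.02 with any other of the 8.

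Counts of the 8 genes had unlike slopes with depth, which are given without a standard error. The slope of log2 count on log2 library total, within groups, was 0.63 for Rpl29 and 0.81 for Mapkapk3, and 1.30 for Gpd1l, 1.31 for Acpp, 1.48 for Stk10 and 1.48 for Adgre5, against a median of 1.18 over all tested genes. A slope of 1 is what proportional counts would give. Btbd11 at 1.02 and Rasgrp2 at 1.05 were nearest to it. For Rpl29, the 12 CIS KO libraries held only 0 to 7 reads each, which leaves its slope imprecise.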

How the data were processed

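RNA of sorted mouse NK cells was measured in 31 libraries of 9 groups, prepared with a directional kit per the labels' protocols. The authors deposited a table of whole-number counts per gene (Entrez identifiers), for which the submitters' processing notes name mm10 and the tools featureCounts, Subread, Trimmomatic, FastQC, SAMtools and Picard. For versions, strand setting, duplicates and reads that fit several places, the options were not given in the sources used here. Total counts ran from 297561 to 1403005 (median 736193), which leaves genes of few reads imprecise.

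Tests used edgeR 4.0.16 (R 4.3.3). Genes were kept by filterByExpr on the 9 groups (10275 of 27179), libraries were scaled by TMM, and all 31 were fitted together in 9 groups. Comparisons used its quasi-likelihood F-test, p-values were adjusted by Benjamini-Hochberg over the 10275 genes, with calls at an adjusted p under 0.05, and all adjusted p-values here come from it unless DESeq2 is named. Standard errors were taken from the log2 fold change and its F statistic. CPM and log2 values follow TMM. The test was tried on simulated counts first.

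The 8 genes, the gene lists and the tests were chosen with earlier results of these data known. Named genes were the 8, Cish and Tgfbr2, the 5 nearest tested genes on each side of Cish, the 3 most highly expressed genes of each list (some are shown), the genes called at all times, for each of the 8 the 3 genes with the highest Pearson r, and the sex-linked genes; Gm8210, the genes just beyond the threshold and the called genes of the lists were chosen after their values were seen. Symbols and coordinates came from RefSeq for GRCm38.p6, and copies were searched with blastn 2.17.0 in GENCODE M21. Alternatives were RLE factors, library size alone, no low-count filter, DESeq2 1.42.0, only the groups compared, replicate blocks and leaving out each replicate. A depth covariate, Rpl29 summed with its copies, and replicate pairs summed were added after seeing the data.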

Additional observations from a re-analysis of the deposited data

Results flagged for a closer look

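Rasgrp2 in CIS KO at 24 h had 1 library far from the others: replicate 3 was at 14.03 CPM, against 6.74 to 7.08 CPM in the other 3. These values came from only 5, 10, 9 and 4 reads in replicates 1 to 4, so counting error is large. The 8 genes were looked at in this way in each of 5 groups of 4 libraries. Of these 40 cases, chance marks about 1 in 20.

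The response to TGFB1 differed between TGFBRII KO and WT, by an interaction test, in 4 cases. The WT libraries of this test also served in choosing the genes. The log2 response of Mapkapk3 was lower in TGFBRII KO by -1.04 at 4 h and by -0.56 at 24 h. That of Adgre5 was lower by -1.01 at 4 h, a difference that was -0.34 without WT replicate 4 of 4 h. That of Rasgrp2 was higher by 1.02 at 24 h.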

How the results depend on the processing

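The count of the 8 genes called at all 3 times was 5 with a depth covariate, 3 with 5 replicate pairs summed (both added after seeing the data), 3 with only the groups compared, 7 with the replicate number as a block (Stk10 lost) and 3 to 8 when a replicate was left out (3 without WT replicate 4 of 4 h, which leaves 1 library, assumed to vary like the other groups). DESeq2 called 2, the 2 of 8 that had an adjusted p at all times; for the other 6 it gave none in unstimulated cells. The number of genes called at all times, 16, was 4 by DESeq2 (4 of the 16 had a value), 10 with pairs summed, 10 with only the groups compared and 5 to 21 when a replicate was left out; 5 to 16 of these were among the 16. Of the 4 within 10 Mb of Cish, 2 were called by DESeq2 (2 of 2 with a value), 2 with only the groups compared and 2 to 4 when a replicate was left out. Of the 5 called at 4 h in CIS KO, 3 were called with only the groups compared. Of the 2 called at 4 h in WT, 1 was called by DESeq2, 1 with the block nested in genotype, 1 with only the groups compared, and 1 to 2 when a replicate was left out. The causes were not tested.

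Same-numbered replicates did not deviate together (r from -0.143 to 0.029 for CIS KO and WT, unstimulated), so the numbers were not read as pairs; over all comparisons none had every pair above 0.1. The Adgre5 response difference at 4 h had an adjusted p of 0.0556 with the replicate block, 0.0535 with library size alone and 0.0564 with DESeq2. That of Mapkapk3 at 24 h had 0.104 with DESeq2 and 0.0941 with pairs summed, and that of Rasgrp2 0.0553 with DESeq2 and 0.0538 without TGFBRII KO unstimulated replicate 2. Gpd1l at 24 h in WT had 0.0812 with DESeq2. Mapkapk3 at 24 h in CIS KO passed with library size alone (0.023) and a depth covariate (0.00192), and Rpl29 at 4 h in WT passed without a low-count filter (0.0357) and with its copies added (0.0391), which also gave its 24 h response in CIS KO a call (0.0304).

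Small uncalled values changed sign. Stk10 at 24 h in CIS KO was -0.018 with RLE factors, -0.025 with DESeq2, -0.018 with the nested block, -0.23 with a depth covariate and -0.17 to 0.12 over omitted replicates. The Stk10 response difference at 4 h was -0.098 with a depth covariate and -0.055 to 0.41 over omissions, Mapkapk3 at 24 h in TGFBRII KO 0.0054 with a depth covariate and -0.062 to 0.035, and the Acpp response difference at 24 h 0.0011 with library size alone, 0.035 with pairs summed and -0.20 to 0.15. Over omissions in TGFBRII KO, Acpp ranged from -0.25 to 0.19 at 4 h and -0.14 to 0.19 at 24 h, Rpl29 from -0.028 to 0.11 and -0.055 to 0.092, and at 24 h Stk10 from -0.096 to 0.17 and Rasgrp2 from -0.069 to 0.11. In CIS KO Rpl29 ranged from -0.67 to 0.88 at 4 h and -0.090 to 1.03 at 24 h; in WT at 24 h Acpp ranged from -0.095 to 0.23 and Btbd11 from -0.046 to 0.18.

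Counts of all called genes moved by over 1.5 times as well. CIS KO against WT unstimulated gave 632, but 403 with DESeq2, 1197 without a filter, 73 with a depth covariate, 56 with pairs summed and 1109 with only the groups compared, and 57 without WT replicate 3, 74, 115, 241 and 1120 without CIS KO replicates 3, 1, 2 and 4, and 381 without WT replicate 2; at 4 h 28, but 16 with DESeq2, 81 without a filter, 73 with depth, 12 with only the groups and 5 without WT replicate 4, and at 24 h 336, but 223 with DESeq2, 603 with depth and 69 with only the groups. TGFBRII KO at 4 h gave 824, but 434 with DESeq2, 1360 with depth, 522 with pairs summed, 1336 with only the groups and 403 to 459 without unstimulated replicate 1 or 2 or replicate 3 of 4 h. CIS KO at 24 h gave 2469, but 1421 with only the groups and 1632 without replicate 2 of 24 h; WT at 4 h gave 1226, but 662 with the nested block, 722 with only the groups and 583 without replicate 1 of 4 h; the TGFBRII KO and WT response difference at 4 h gave 778, but 499 with DESeq2 and 514 without WT replicate 1. TGFBRII KO at 24 h gave 2, and from 0 (DESeq2) to 206 (only the groups).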
